A study of Rattus norvegicus with 6 samples.

Results

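The genes that load, fire and run DNA replication forks were examined in cultured rat heart muscle cells treated with retinoic acid. The list held 53 genes chosen by name and function, from the origin recognition complex to the enzymes that supply DNA precursors, out of 23096 protein-coding genes in the deposited table. All 53 had a row there, and the list was chosen with earlier results of these data known. The cells were prenatal ventricular cardiomyocytes (PRVCMs) from Wistar rat embryos at E18.5. Cultures were kept for 48 h with either the solvent dimethyl sulfoxide (DMSO, the vehicle group) or all-trans retinoic acid (ATRA) at 10 µM, with 3 libraries per group. ATRA is the vitamin A metabolite that activates the nuclear retinoic acid receptors. Both groups came from trypsin and collagenase digests of ventricles that had been pre-plated to reduce fibroblasts, and both were grown on laminin in medium with fetal bovine serum. Nothing in the labels says that replicates derive from different cell isolations. The p-values below therefore reflect the spread among these libraries alone, which may be technical.

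DNA replication begins in G1, when the origin recognition complex, Cdc6 and Cdt1 load the ring-shaped MCM helicase onto origins, a step called licensing. In S phase the kinase of Cdc7 and Dbf4 and the cyclin-dependent kinases turn the loaded ring into an active helicase by adding Cdc45 and the GINS complex, and polymerases, clamp and clamp loader follow. Many of these genes are transcribed by E2F factors as cells enter the cycle. Rodent cardiomyocytes divide before birth and leave the cell cycle in the first weeks after it, and the series title places the comparison in that setting.

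Most of the replication genes fell after ATRA, each by a small amount. Of the 53 members, all of which passed the filter on low values, 36 were lower, 2 were higher and 15 did not pass limma's test, with a threshold of 0.05 on p-values adjusted by the Benjamini-Hochberg method over the 13110 genes tested. Of those genes, 18.9% were called lower and 20.3% higher. The median log2 fold change of the members was -0.36, or 1.28-fold lower, against 0.0044 for all of them. The called falls ranged from 1.19-fold for Orc5 to 2.09-fold for Gins2, and Gins2 was the 1 member that fell at least 2-fold. The normalised counts of all 3 ATRA libraries lay below those of all 3 vehicle libraries for 39 members, and above them for 3 (Dut, Pola2 and Fen1). The same held for 26.2% and 27.6% of all tested genes. With ATRA replicate 1 left out, 24 members and 12.5% of all tested genes were called lower, and without ATRA replicate 2 these were 25 members and 12.6%. In these bulk samples, fewer cycling cells and less of these RNAs per cell cannot be told apart.

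**Figure D1:**
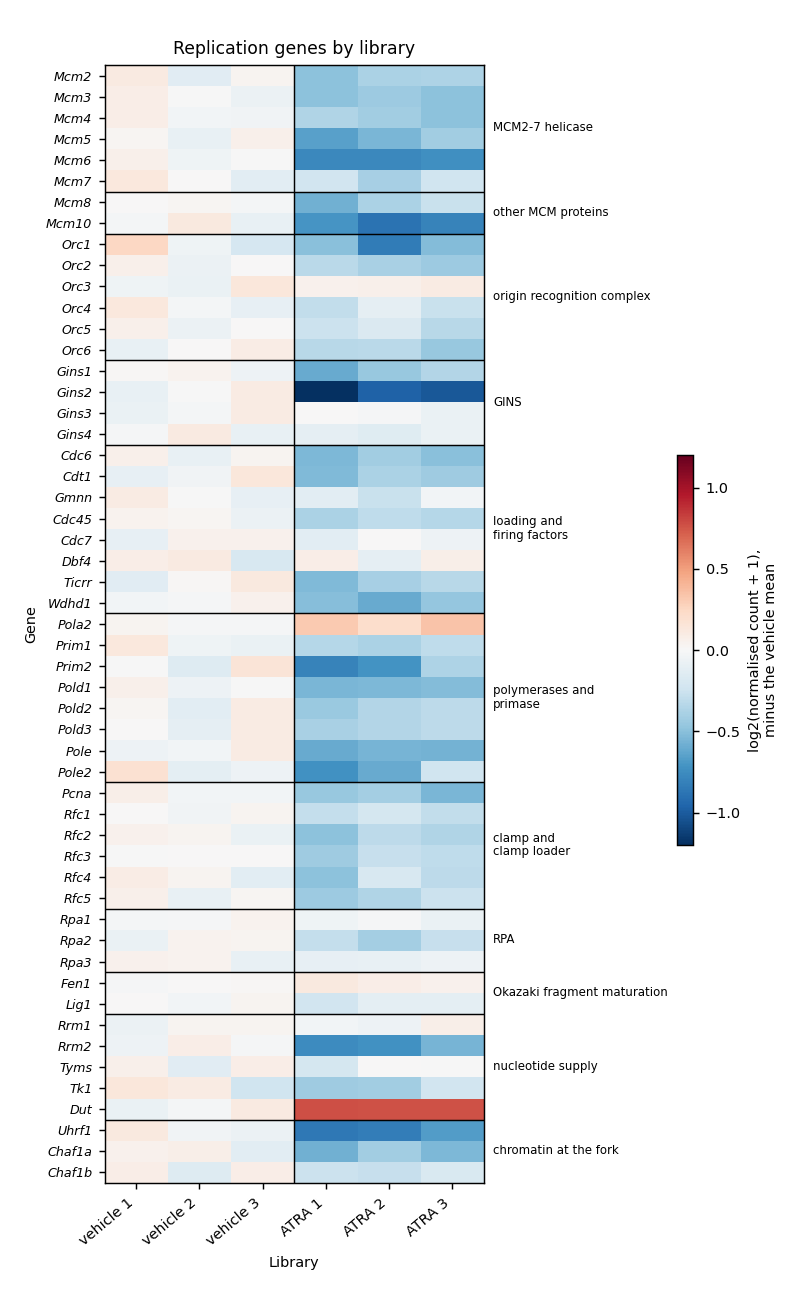
Level of each of the 53 replication genes (rows, grouped by complex) in each library (columns), as log2(normalised count + 1) minus the mean of the 3 vehicle libraries. The 3 ATRA columns are blue for most rows, most deeply for Gins2, and red for Dut and Pola2.

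The libraries held 25434878 to 32052035 gene-assigned reads, and the members had vehicle means of 82.2 to 4618 normalised counts. The cardiomyocyte label was borne out by abundant markers, and all 11 matched markers were tested. Their summed level was 763359 to 1026750 normalised counts under vehicle and 1307500 to 1337400 after ATRA. Of the 11, 5 were called higher, 5 were not called and 1 was lower. The lower marker was Myh7, with means of 243752 under vehicle and 155375 after ATRA. Markers of other cell types were also detected. The summed level of 13 fibroblast markers was 281059, 214475 and 126160 normalised counts in vehicle replicates 1 to 3 and 120163 to 127008 after ATRA. Of the 12 tested, 4 were called lower and 2 higher. The single markers of other cell types moved in both directions, so each sum is given with its calls. The 8 endothelial markers summed to 623 to 1130 normalised counts under vehicle and 1273 to 1439 after ATRA. The higher sum followed Kdr, a growth factor receptor gene, with means of 285 and 1043, while Tek and Egfl7 were called lower and the median log2 fold change of the 7 tested was -0.49. The 8 smooth muscle and pericyte markers summed to 7958 to 13704 and 20882 to 21896. Abcc9, a potassium channel subunit gene, went from a mean of 1287 to 14064 there, Cnn1 and Myh11 were also higher, and Pdgfrb, Cspg4 and Notch3 were called lower. Rgs5 was at 0 in every vehicle library with a mean of 1.71 after ATRA, and Kcnj8 had means of 10.7 and 9.49. Which cells the Abcc9 RNA came from was not tested. For 9 immune markers the sums were 223 to 273 and 304 to 423, with Csf1r higher (99.8 and 315), Cd14 lower (117 and 19.7) and the macrophage gene Cd163 at 0 in every library. The 5 epicardial markers summed to 1218 to 2033 and 886 to 920.1, and 4 of them were called lower. The part of these cell types in the changes of the replication genes was not tested.

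Fibroblast markers moved in part with the treatment, and vehicle replicate 3 stood apart in them, so the members were set against each vehicle library in turn. In vehicle replicate 3, 12 of 13 fibroblast markers were below the average of vehicle replicates 1 and 2, with a median log2 difference of -1.16. Of the 53 replication genes, 25 were lower there, with a median of 0.0041. This was near the level of all 13110 tested genes, of which 6376 were lower there, with a median of 0.0070. The ATRA mean minus vehicle replicate 3 had a median of -0.38 over the replication genes and 0.22 over the fibroblast markers. Against vehicle replicates 1 and 2 the medians were -0.41 and -0.36 for the replication genes and -1.26 and -0.78 for the fibroblast markers. Single markers still differed from that library. Postn, a matrix gene, had 2668 normalised counts in vehicle replicate 3 and a mean of 405 after ATRA, and the 5 epicardial markers had a median of -0.56 against it, with 4 lower in every ATRA library. Of all 53 members, 44 were lower in every ATRA library than in vehicle replicate 3. The share among all tested genes was not computed, so this count cannot be read as a trait of the members. For the 36 lower members the count was 35, all but Tk1. These were called with that library in the fit, so their count adds no separate support.

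**Figure D2:**
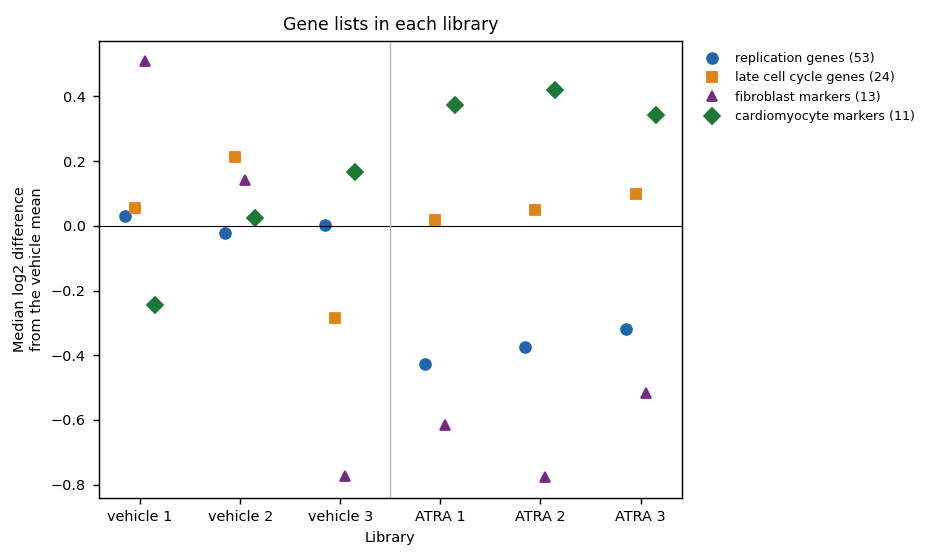
Median log2 difference from the vehicle mean, per library, for the 53 replication genes, 24 late cell cycle genes, 13 fibroblast markers and 11 cardiomyocyte markers. The replication genes lie within 0.032 of 0 in the vehicle libraries and between -0.43 and -0.32 in the ATRA libraries, while the fibroblast markers are at -0.77 in vehicle replicate 3 and between -0.78 and -0.52 after ATRA.

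Because a large share of the members moved together, their promoters were searched for sequences that cell cycle genes are known to carry. RefSeq promoter windows of build GRCr8, from 250 bases before to 50 after the annotated start, were at hand for 46 of the 53 members. Mcm4, Orc1, Orc4, Gins4, Cdc6, Rpa3 and Rrm2 had no entry. An E2F motif, spelled TTTCCCGC, TTTCGCGC, TTTGCCGC or TTTGGCGC and searched on both strands, was found for 20 of 46 members (43.5%) and for 2.95% of 19005 protein-coding genes with a window. It was found for 14 of the 32 lower members with a window (43.8%), for 6 of the 12 members not called (50%) and for neither of the 2 higher members. The E2F letters were thus found in like shares among members that fell and members that did not pass the test. A CCAAT box was found for 21 of the 32 lower members (65.6%), 4 of the 12 not called (33.3%) and 39.8% of protein-coding genes, and the GC box GGGCGG for 63% of members and 44.1% of protein-coding genes. The letters TTTGAA of the cell cycle homology region (CHR), an element of late cell cycle promoters, were found for 13% of members and 18.1% of protein-coding genes. By call they were found for 1 of the 32 lower members (3.12%), 4 of the 12 not called (33.3%) and 1 of the 2 higher. A match describes the letters in a window and not a bound site. Only the 4 E2F spellings given were searched. Windows of both higher members, Pola2 and Dut, held tttggcgg, which differs from TTTGGCGC in its last base. How often other windows hold it was not counted.

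All 5 MCM2-7 genes with a window held the E2F letters, and their stretches are shown with those of the 6 members that were not called but held them too, to let both sets be compared. Capitals mark E2F matches, and overlapping matches on both strands run together. The stretches run 5′ to 3′ in the direction of transcription, with coordinates in GRCr8.
Mcm2 (chr4:122918077-122918124, minus strand): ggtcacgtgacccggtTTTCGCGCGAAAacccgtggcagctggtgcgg
Mcm3 (chr9:30733725-30733772, minus strand): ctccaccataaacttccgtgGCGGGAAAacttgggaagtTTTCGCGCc
Mcm5 (chr19:13488785-13488832, plus strand): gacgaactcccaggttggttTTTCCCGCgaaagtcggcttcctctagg
Mcm6 (chr13:42404460-42404507, minus strand): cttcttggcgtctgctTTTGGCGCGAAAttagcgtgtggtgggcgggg
Mcm7 (chr12:22163203-22163250, minus strand): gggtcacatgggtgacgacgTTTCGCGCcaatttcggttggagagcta
Orc3 (chr5:53977862-53977909, minus strand): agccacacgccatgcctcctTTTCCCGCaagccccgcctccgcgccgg
Gins3 (chr19:9434688-9434735, minus strand): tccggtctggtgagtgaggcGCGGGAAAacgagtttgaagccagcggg
Gmnn (chr17:40729852-40729883, plus strand): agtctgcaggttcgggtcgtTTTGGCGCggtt
Pole2 (chr6:93435325-93435372, minus strand): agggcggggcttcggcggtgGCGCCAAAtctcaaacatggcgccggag
Lig1 (chr1:83243169-83243216, plus strand): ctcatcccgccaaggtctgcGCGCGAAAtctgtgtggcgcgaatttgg
Tyms (chr9:120776093-120776140, minus strand): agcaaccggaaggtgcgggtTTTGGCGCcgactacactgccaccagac

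Counted from the annotated start, the first base of the match nearest to it lay at -10 in Mcm2, -6 in Mcm3, -8 in Mcm5, -52 in Mcm7 and -135 in Mcm6. In Mcm2 and Mcm6 matches on opposite strands overlapped into 1 longer run, with TTTCGCGC on both strands in Mcm2 and TTTGGCGC overlapping TTTCGCGC in Mcm6. The whole windows of Mcm6, the member with the smallest p, and Pola2, 1 of the 2 genes that rose, are shown as examples. Mcm6 held the E2F letters as spelled above and Pola2 did not, although its window held tttggcgg. The windows of Gins2 and Pcna, both called lower, did not hold the E2F letters either. Mcm6 and Pola2 thus do not stand for lower and higher members.
Mcm6 (chr13:42404303-42404602, minus strand): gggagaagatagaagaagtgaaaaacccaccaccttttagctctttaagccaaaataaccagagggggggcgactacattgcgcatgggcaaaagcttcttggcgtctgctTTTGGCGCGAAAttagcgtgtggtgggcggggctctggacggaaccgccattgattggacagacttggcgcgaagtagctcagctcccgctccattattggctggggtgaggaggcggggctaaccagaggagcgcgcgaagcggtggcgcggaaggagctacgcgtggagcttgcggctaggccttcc
Pola2 (chr1:212680493-212680792, minus strand): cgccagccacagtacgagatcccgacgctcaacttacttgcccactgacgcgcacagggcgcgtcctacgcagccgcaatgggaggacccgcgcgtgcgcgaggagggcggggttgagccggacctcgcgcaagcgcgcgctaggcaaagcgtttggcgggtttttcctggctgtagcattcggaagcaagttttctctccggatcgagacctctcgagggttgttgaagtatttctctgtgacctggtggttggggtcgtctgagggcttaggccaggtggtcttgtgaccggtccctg

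All 6 subunits of the MCM2-7 helicase, the ring that unwinds DNA ahead of the fork, fell. Their median log2 fold change was -0.45, or 1.36-fold lower, and no subunit overlapped between the groups. Mcm6 (ENSRNOG00000003703) fell most of the ring subunits, from 1644, 1517 and 1567 normalised counts in the vehicle libraries to 921, 919 and 949 in the ATRA libraries. Every ATRA library was thus well below the lowest vehicle library, with a 1.69-fold fall (log2 fold change -0.76 ± 0.056, SE, n = 3 per group, limma adjusted p = 6.03e-05). Mcm5 (ENSRNOG00000014336) went from 1599, 1476 and 1636 to 997, 1071 and 1174 normalised counts, 1.45-fold lower (-0.54 ± 0.076, limma adjusted p = 0.0012). For Mcm3 (ENSRNOG00000012543) the vehicle libraries had 1231, 1167 and 1110.3 and the ATRA libraries 831, 861 and 831 normalised counts, 1.39-fold lower (-0.47 ± 0.062). The ATRA values of Mcm3 lay close together, and the gap to the vehicle values was several times their range.

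Mcm4 (ENSRNOG00000001833) had 1575, 1457 and 1447 normalised counts under vehicle and 1165, 1117 and 1062 after ATRA, a log2 fold change of -0.42 ± 0.062. Mcm2 (ENSRNOG00000016316), whose tail also binds histones, had 2023, 1707 and 1922 and 1333, 1448 and 1454 normalised counts (-0.41 ± 0.075, limma adjusted p = 0.00393). Vehicle replicate 2 was the lowest of its vehicle libraries and was still above each ATRA library. Mcm7 (ENSRNOG00000001349) moved least, from 1428, 1316 and 1201 to 1119.9, 995 and 1108 normalised counts (-0.29 ± 0.081, limma adjusted p = 0.0237). The lowest vehicle library and the highest ATRA library of Mcm7 were 1201 and 1119.9, and the call was lost without vehicle replicate 2 (adjusted p = 0.0666) or without ATRA replicate 1, 2 or 3 (0.0526, 0.0956 and 0.0604).

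The other MCM proteins of the list fell as well. Mcm10 (ENSRNOG00000017981), a scaffold that joins the helicase when origins fire, had 272, 299 and 259 normalised counts under vehicle and 169, 149 and 158 after ATRA, 1.74-fold lower (-0.80 ± 0.11, limma adjusted p = 0.000955). Mcm8, which acts in homologous recombination, had 148.1, 150.2 and 145.7 normalised counts under vehicle and 98.96, 113.2 and 122.5 after ATRA (-0.41 ± 0.13, limma adjusted p = 0.0344). Its groups did not overlap, but its call was lost in 8 of 16 alternative settings, 5 of them with 1 library left out (vehicle replicate 1 or 2, or any ATRA replicate).

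**Figure D3:**
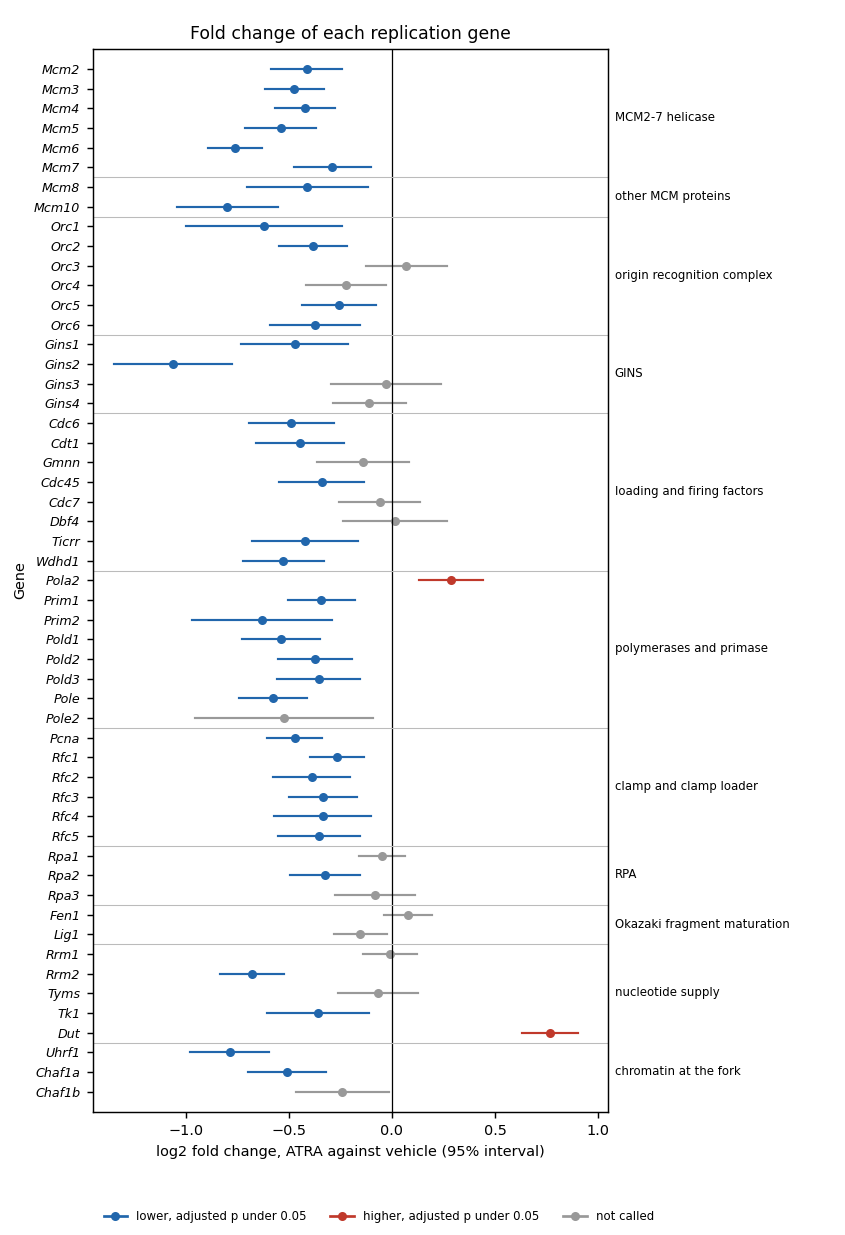
Log2 fold change of each member, ATRA against vehicle, with its 95% interval from limma, grouped by complex. All 6 MCM2-7 subunits and all 6 clamp and clamp loader genes lie left of 0, and Dut (0.77) and Pola2 (0.29) are the called genes to the right.

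The origin recognition complex, the platform on which the helicase is loaded, was split. Of its 6 subunit genes 4 fell, Orc3 and Orc4 were not called, and the median log2 fold change was -0.31. Orc1 (ENSRNOG00000008841), the subunit whose level rises and falls with the cell cycle in mammals, had 186, 150.2 and 136 normalised counts under vehicle and 109.7, 87 and 108 after ATRA, 1.54-fold lower (-0.62 ± 0.16, limma adjusted p = 0.0189). Its vehicle values were widely spread, and its call was lost without ATRA replicate 2 (adjusted p = 0.0753). Orc2 (ENSRNOG00000012558) fell from 666, 609 and 638 to 509, 485 and 470.5 normalised counts (-0.38 ± 0.072, limma adjusted p = 0.00453). Orc6 (ENSRNOG00000024043), a small subunit that helps recruit the helicase, fell from 288, 307 and 326 to 243, 246 and 223 (-0.37 ± 0.095, limma adjusted p = 0.0166). The groups of Orc2 and Orc6 did not overlap, and leaving out ATRA replicate 1 or 3 took the Orc6 adjusted p to 0.0507 or 0.0747.

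Orc5 (ENSRNOG00000011519) had 563, 514 and 543 normalised counts under vehicle and 449.7, 478 and 428 after ATRA (-0.26 ± 0.078, limma adjusted p = 0.0323), and among the fits with 1 library left out it lost its call without vehicle replicate 1 or any ATRA replicate. Orc4 (ENSRNOG00000005021) had 948, 854 and 811 and 707, 808 and 724 normalised counts and was not called (-0.22 ± 0.084, limma adjusted p = 0.0682), although its groups did not overlap. Without vehicle replicate 3 it passed the test (-0.27, adjusted p = 0.021). Orc3 (ENSRNOG00000008314) had 390.0, 382 and 445 normalised counts under vehicle and 418, 423 and 434 after ATRA, values that overlapped (log2 fold change 0.07 ± 0.085, 95% interval -0.13 to 0.27). With libraries scaled by total reads alone its estimate was -0.038.

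The GINS complex, 4 proteins that complete the active helicase, was split in the same way, with Gins1 and Gins2 lower and the others not called. Gins2 (ENSRNOG00000017575) had 183, 194 and 208 normalised counts in the vehicle libraries and 84.3, 99.1 and 95.4 in the ATRA libraries, 2.09-fold lower and the largest fall of the list (-1.06 ± 0.12, limma adjusted p = 0.000529). The highest ATRA library was far below the lowest vehicle library. The span of Gins2 in the RefSeq table overlaps that of Gse1, which rose (2.46 ± 0.15, limma adjusted p = 2.09e-05), and the strand setting of the counting is not given in the sources used here. Whether reads are shared between the pair was not tested. The spans of Orc3, Orc4, Ticrr, Pole2, Fen1, Lig1, Rrm2 and Uhrf1 also overlap another protein-coding gene there, so their values carry the same limit. Gins1 (ENSRNOG00000008091) fell from 214, 218 and 202 to 138, 154 and 166 normalised counts (-0.47 ± 0.11, limma adjusted p = 0.0126), a call lost without ATRA replicate 1 (0.0543).

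Gins3 and Gins4 were not called. Gins3 (ENSRNOG00000011863) had 128, 133 and 145 normalised counts under vehicle and 135, 133 and 128 after ATRA, with overlapping groups (log2 fold change -0.029 ± 0.12, 95% interval -0.29 to 0.24). Gins4 (ENSRNOG00000018040) had 527, 576 and 501 and 497, 482 and 506 normalised counts, overlapping as well (-0.11 ± 0.078, 95% interval -0.29 to 0.07). The Gins3 interval does not reach the fall of Gins2.

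Among the factors that load and fire the helicase, 5 of 8 fell and 3 were not called, with a median of -0.38. The loaders Cdc6 and Cdt1 both fell, Cdc6 from 354 ± 19.8 to 252 ± 10.7 normalised counts (SD, n = 3; log2 fold change -0.49 ± 0.089) and Cdt1 from 441 ± 38.2 to 323 ± 16.7 (-0.45 ± 0.093). Gmnn encodes geminin, which binds Cdt1 and blocks relicensing, and it was not called (-0.14 ± 0.096, 95% interval -0.36 to 0.081). Cdc45, the partner of MCM and GINS in the active helicase, fell from 272 ± 10.9 to 215 ± 5.86 (-0.34 ± 0.09, limma adjusted p = 0.0189), a call lost, among the fits with 1 library left out, without vehicle replicate 2 or any ATRA replicate. Ticrr, which brings Cdc45 to origins, fell with a log2 fold change of -0.42 ± 0.11, and its call was lost without vehicle replicate 2, ATRA replicate 1 or ATRA replicate 2. Wdhd1 (ENSRNOG00000011167), which ties polymerase alpha to the helicase, had 361, 365 and 382 normalised counts under vehicle and 259.6, 243 and 267 after ATRA (-0.53 ± 0.085, limma adjusted p = 0.00229). The firing kinase genes were not called, with -0.06 ± 0.085 for Cdc7 (95% interval -0.25 to 0.14) and 0.015 ± 0.11 for its activator Dbf4 (95% interval -0.24 to 0.27).

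The polymerase and primase genes fell in 6 of 8 cases, with a median of -0.45, and included 1 of the 2 genes that rose. Pole (ENSRNOG00000037449), the catalytic subunit of the leading-strand polymerase epsilon, had 650.4, 666 and 726 normalised counts under vehicle and 448, 461 and 459.6 after ATRA, 1.49-fold lower (-0.58 ± 0.072, limma adjusted p = 0.000708). Pold1 (ENSRNOG00000019681), the catalytic subunit of the lagging-strand polymerase delta, had 389, 358 and 372 and 254, 257 and 259 (-0.54 ± 0.082, limma adjusted p = 0.00179). The ATRA libraries of both genes were tightly grouped and far below the vehicle libraries. The delta subunits Pold2 (-0.37 ± 0.077) and Pold3 (-0.35 ± 0.087) also fell, the latter not without ATRA replicate 1 or 2 (adjusted p = 0.0600 and 0.0550). Pole2, the second epsilon subunit, was the least abundant member by normalised count, and was not called (-0.52 ± 0.19, limma adjusted p = 0.0569, 95% interval -0.95 to -0.093) although its groups did not overlap. Without ATRA replicate 3 it was called lower (-0.67, adjusted p = 0.0464).

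Polymerase alpha makes the RNA-DNA primers with primase, and its genes moved apart. Pola2 (ENSRNOG00000020906), the B subunit of polymerase alpha, had 599, 579.9 and 579.6 normalised counts under vehicle and 729, 676 and 744 after ATRA, 1.22-fold higher (0.29 ± 0.067, limma adjusted p = 0.0115). All ATRA libraries were above all vehicle libraries, but the call was lost without ATRA replicate 1 (adjusted p = 0.0543), without ATRA replicate 3 (0.0612) and with libraries scaled by total reads alone (0.18, 0.0655). Pola1, the catalytic subunit, which was not on the list of 53, fell from 454 ± 68.2 to 269 ± 4.81 normalised counts (-0.75 ± 0.11, limma adjusted p = 0.0018). Prim1, the catalytic primase subunit, fell from 1262 ± 99.7 to 994 ± 25.7 (-0.34 ± 0.07), and Prim2, the large subunit, from 226 ± 24 to 146 ± 24 (-0.63 ± 0.15), but the adjusted p of Prim2 was 0.0513 and 0.0512 when ATRA replicate 1 or 2 was left out.

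Every gene of the sliding clamp and of the main clamp loader fell, 6 of 6, with a median of -0.34. Pcna (ENSRNOG00000021264), the clamp that tethers polymerases to DNA, had 2595, 2411 and 2415 normalised counts under vehicle and 1803, 1858 and 1691 after ATRA, 1.39-fold lower (-0.47 ± 0.058, limma adjusted p = 0.000686). The 5 loader genes fell by similar amounts, from -0.27 ± 0.057 for Rfc1 to -0.39 ± 0.081 for Rfc2, with Rfc3, Rfc4 and Rfc5 between them. The Rfc4 call (limma adjusted p = 0.033) was lost, among the fits with 1 library left out, without vehicle replicate 1 or 2 or ATRA replicate 1 or 3, and the Rfc5 call without ATRA replicate 1 or 2.

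The single-strand binding protein RPA and the enzymes that join Okazaki fragments gave 1 call among 5 genes. Rpa2 fell from 655 ± 29.4 to 523 ± 26.9 normalised counts (-0.32 ± 0.074, limma adjusted p = 0.0104, but 0.0512 without ATRA replicate 2), while Rpa1 (-0.047 ± 0.048, 95% interval -0.16 to 0.063) and Rpa3 (-0.081 ± 0.084, 95% interval -0.27 to 0.11) were not called. Fen1, the flap nuclease, had 1319 ± 14.6 normalised counts under vehicle and 1395 ± 31.4 after ATRA and was not called (0.08 ± 0.05, 95% interval -0.036 to 0.20). Its ATRA libraries nevertheless all lay above its vehicle libraries. Lig1, the replicative ligase, was not called (-0.15 ± 0.055, limma adjusted p = 0.0598), and was called lower in 4 of 16 alternative settings, all of them changes of scaling or tool.

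The genes of nucleotide supply went in both directions. Dut (ENSRNOG00000007221) encodes dUTPase, which removes dUTP so that uracil is not built into DNA and yields the substrate of thymidylate synthase. It had 1824, 1902 and 2085 normalised counts in the vehicle libraries and 3301, 3286 and 3292 in the ATRA libraries, 1.7-fold higher (0.77 ± 0.059, limma adjusted p = 7.91e-05). The ATRA libraries were nearly identical and far above every vehicle library, and the call held in all 16 alternative settings. Rrm2 (ENSRNOG00000054286), the S-phase subunit of ribonucleotide reductase, had 3429, 3779.5 and 3548 normalised counts under vehicle and 2121, 2171 and 2435 after ATRA, 1.6-fold lower (-0.68 ± 0.068, limma adjusted p = 0.000261). Rrm1, the large subunit of the same enzyme, had 4397, 4729 and 4728 and 4507, 4411 and 4839 normalised counts, with overlapping groups (-0.01 ± 0.057, 95% interval -0.14 to 0.12). Tyms, thymidylate synthase, was not called (-0.069 ± 0.084, 95% interval -0.26 to 0.12). Tk1, the thymidine kinase of the salvage route, fell from 1388 ± 189 to 1077 ± 83.2 (-0.36 ± 0.11, limma adjusted p = 0.0302). It was the 1 called member whose groups overlapped, and among the fits with 1 library left out it lost the call without vehicle replicate 1 or 2 or ATRA replicate 1 or 2.

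Chromatin factors that travel with the fork fell in 2 of 3 cases. Uhrf1 (ENSRNOG00000048411), which brings the maintenance methyltransferase to newly made DNA, had 946, 849.8 and 829.8 normalised counts under vehicle and 481, 491 and 549 after ATRA, 1.72-fold lower (-0.79 ± 0.083, limma adjusted p = 0.00034). Chaf1a (ENSRNOG00000046479), the large subunit of the histone chaperone CAF-1, had 736, 745 and 650.3 and 475, 531 and 489 (-0.51 ± 0.083, limma adjusted p = 0.00238). No ATRA library of either gene reached a vehicle library. Chaf1b, its partner, was not called (-0.24 ± 0.098, limma adjusted p = 0.0875, 95% interval -0.47 to -0.014), with groups that did not overlap, and was called lower without vehicle replicate 2 (-0.32, adjusted p = 0.0463).

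**Figure D4:**
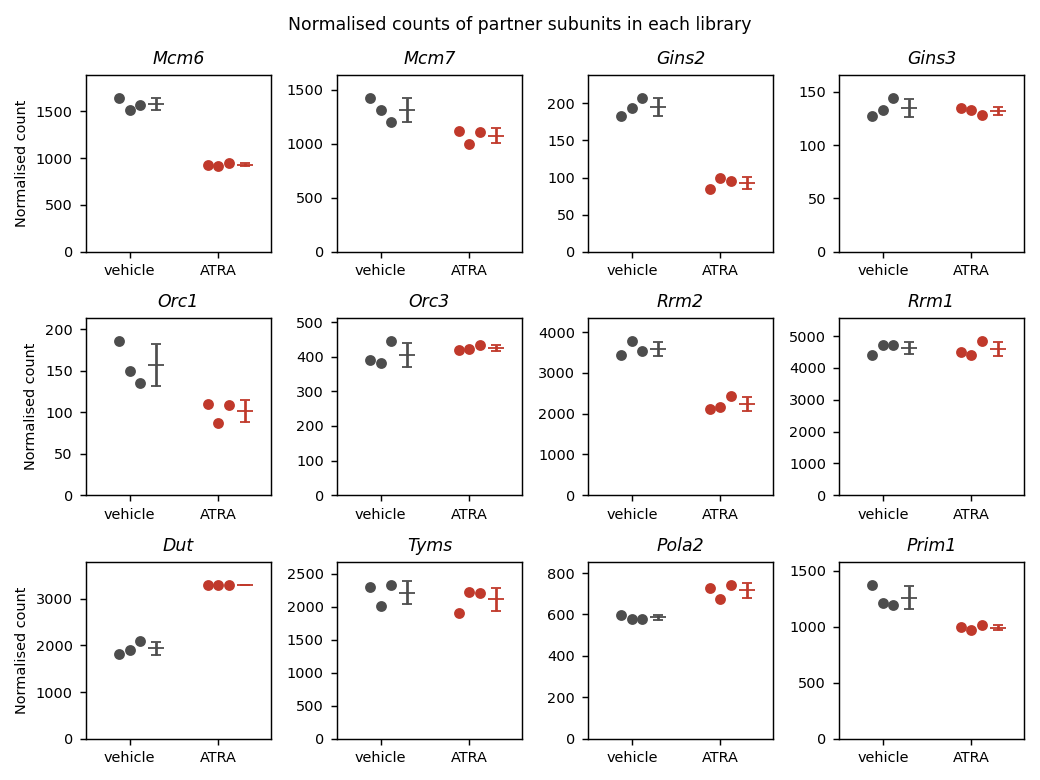
Normalised counts of 12 members in each library, as pairs from the same complex or pathway, with the mean and SD (n = 3) beside the points and each axis starting at 0. The groups are apart for Rrm2, Gins2 and Mcm6 and overlap for Rrm1 and Gins3, and Dut and Pola2 are higher after ATRA.

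Because members of 1 complex moved by different amounts, the ratio of partner genes was taken within each library, on the authors' FPKM scale, which divides fragments by gene length and library depth, so that scaling between libraries cancels. For 8 pairs chosen after their values were seen, the ratios of the groups did not overlap in any pair. The choice favoured such pairs, so this describes them and is no share over all pairs. The two-sided exact permutation p was 0.1 for each, the smallest that 3 against 3 libraries allow (0.1 after Benjamini-Hochberg adjustment over the 8). Groups that do not overlap always give this p, so for pairs chosen in this way it gives no support. The Rrm2 to Rrm1 ratio was 1, 1.03 and 0.965 in the vehicle libraries and 0.605, 0.633 and 0.647 in the ATRA libraries. The ratio of Gins2 to Gins3 was 0.817 ± 0.0078 in vehicle and 0.399 ± 0.0396 after ATRA (SD, n = 3), a log2 difference of -1.04. Within the helicase ring, Mcm6 over Mcm7 went from 0.894 ± 0.0656 to 0.645 ± 0.0384 (-0.47). The ratio of Orc1 to Orc3 went from 0.322 ± 0.0702 to 0.197 ± 0.0245 (-0.70), that of Rpa2 to Rpa1 from 0.692 ± 0.028 to 0.572 ± 0.0418 (-0.28) and that of Pcna to Fen1 from 3.69 ± 0.198 to 2.52 ± 0.0939 (-0.55). In the other direction, Pola2 over Prim1 went from 0.66 ± 0.0381 to 1.02 ± 0.0265 (0.63) and Dut over Tyms from 1.83 ± 0.162 to 3.27 ± 0.303 (0.84).

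On the FPKM scale the members spanned a wide range, from 1.34 FPKM for Ticrr to 57.7 FPKM for Pcna in vehicle, with a median of 8.11. Pcna had 57.7 ± 2.44 FPKM in vehicle and 41.6 ± 1.99 after ATRA (SD, n = 3), Rrm1 47.9 ± 1.99 and 47.6 ± 2.33, and Rrm2 47.8 ± 2.38 and 29.9 ± 2.25. Dut had 38.6 ± 2.67 FPKM in vehicle and 65.7 ± 0.15 after ATRA, and was the highest member after ATRA. In vehicle the ring subunits were of like level, from 13 ± 0.616 FPKM for Mcm4 to 19.8 ± 1.7 for Mcm2, with the neighbours Mcm4, Mcm6 (13.6 ± 0.554) and Mcm3 (13.7 ± 0.708) within their spread. After ATRA the order ran from 8.04 ± 0.143 FPKM for Mcm6 to 14.9 ± 0.719 for Mcm2, and Mcm6 was then the lowest ring subunit. Within the origin recognition complex, Orc4 had the highest level (13.2 ± 1.06 FPKM in vehicle) and Orc1 the lowest (1.77 ± 0.29).

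**Figure D5:**
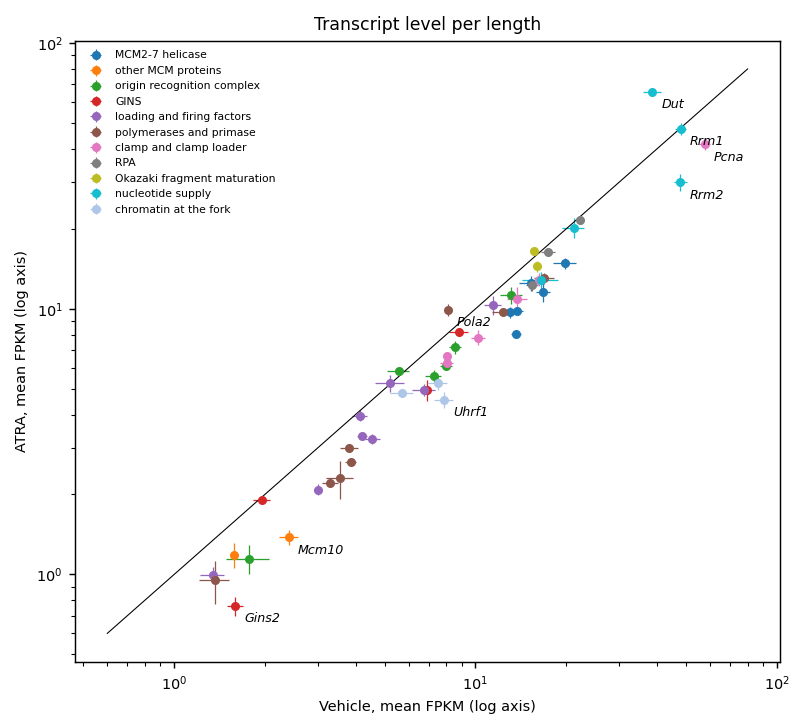
Mean FPKM after ATRA against mean FPKM in vehicle for the 53 members, both on log axes, with SD bars (n = 3), colours for the complex and a line of equal level. Most points lie just below the line, Rrm1 lies on it, and Dut and Pola2 lie above it.

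Other genes of replication, 60 chosen by function, included more lower than higher genes. They were chosen with earlier results of these data known, so their counts describe them and give no separate support. Of 57 matched and tested, 23 were lower and 2 higher, against the 18.9% and 20.3% of all tested genes, with a median log2 fold change of -0.16. Of the fork protection and checkpoint genes, 6 of 10 were lower. These were Timeless (-0.74 ± 0.1), Clspn (-0.56 ± 0.096), Chek1 (-0.44 ± 0.091), Atr (-0.41 ± 0.12), Rad9a (-0.32 ± 0.06) and Tipin (-0.27 ± 0.085), whose proteins stabilise stalled forks or signal from them. Of 9 licensing and firing genes 4 were lower, among them Dtl (-0.65 ± 0.11), a ubiquitin ligase subunit that removes Cdt1 in S phase, and Topbp1 (-0.42 ± 0.061), which works with Ticrr. The methyltransferase gene Dnmt1, which Uhrf1 recruits, fell from 2505 ± 86.4 to 1946 ± 77.3 normalised counts (-0.36 ± 0.054, limma adjusted p = 0.0016). The 2 higher genes were Top1 (0.16 ± 0.051) and Dguok (0.33 ± 0.076), which encode a topoisomerase and a mitochondrial deoxyguanosine kinase.

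Of 24 late cell cycle genes, which act mainly in mitosis, 23 were not called and Kif20a, a mitotic kinesin, was higher (0.43 ± 0.14, limma adjusted p = 0.0443), with a median of 0.064. Vehicle replicate 3 was below the average of vehicle replicates 1 and 2 for all 24, and for 6376 of all 13110 tested genes. The median log2 difference was -0.43 for the 24 and 0.0070 for all tested genes. Against vehicle replicate 3 alone the ATRA mean of the 24 was higher by a median of 0.33. Against vehicle replicates 1 and 2 the medians were -0.0043 and -0.14. The median of the replication genes was below 0 against each of the 3 vehicle libraries, as given above.

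The authors' deposited table holds their own comparison, which called 34 members lower and 2 higher at an adjusted p under 0.05, against 16.8% of its 14536 genes with an adjusted p called lower. All 36 were also called here in the same direction. The authors' deposited table gave -1.07 for Gins2, -0.76 for Mcm6 and 0.77 for Dut as log2 fold changes. When total reads alone set the scale, the median of all tested genes moved to -0.10 and that of the members to -0.47, so that the members lay 0.36 below all genes on the log2 scale, as they did with the authors' size factors.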

How the data were processed

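Poly(A) RNA of 6 cultures was sequenced, 3 per group. Per the submitters' processing notes, the build was mRatBN7.2 and the tools were DESeq2 1.32.0, HTSeq 0.11.2, STAR 2.7.3a and Trim Galore 0.6.4. The strand setting of the counting is not given in the sources used here, and 9 members overlap another protein-coding gene in the RefSeq table of GRCr8. Per the file headers, the authors deposited for each gene its normalised count (a signal) and its FPKM in every library. Their own comparison, deposited beside these, has a log2 fold change, a test score and raw and adjusted p-values. For genes with 2 rows (Cdc45), the row with the higher mean was used.

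The normalised counts were whole multiples of 1 step per library, within 1e-08 for 100% of values, which gave the reads and depths. For ATRA replicate 2 the step of 1.01 is close to 1. Groups were compared with limma 3.58.1 (trended variance) on log2 of the normalised count plus a pseudocount of 1, for genes with at least 10 normalised counts in at least 3 libraries, adjusted by Benjamini-Hochberg over all 13110. Fold changes are on that scale, which understates low genes. Alternatives used edgeR 4.0.16 and DESeq2 1.42.0 on the recovered reads, other scalings, filters and weights, a replicate block and each library left out. Tests were checked on simulated data. At the depth of these libraries 3 reads equal 0.0936 to 0.118 CPM, a floor for counting error alone. Replicates were not duplicates, with a chi-square per degree of freedom of 2.59 or more. It was 23.54 to 49.15 between vehicle libraries and 2.59 to 3.42 between ATRA libraries, so the vehicle libraries differed more among themselves.

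The members and gene lists were chosen with earlier results of these data known. All members are described, in full for MCM2-7, the origin recognition complex, GINS, the 15 smallest p-values and a sole called member of a direction. Pola2, Mcm8, Rrm1 and the ratio pairs were chosen after their values were seen. Of the other lists' entries, Mcm9, Poln, Rnaseh2c, Pln and Krt19 had no matching symbol and are left out.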

Additional observations from a re-analysis of the deposited data

How the results depend on the processing

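Over 16 alternatives the number of lower members was 24 to 37 with 1 library left out (lowest without ATRA replicate 1) and 31 to 41 otherwise. The share of all tested genes called lower moved as well, from 12.5% without ATRA replicate 1 or 3 to 28.8% with library size alone, the setting that gave 41. Of the 38 called members, 23 kept their call in all 16 alternatives, 15 lost it in at least 1, and 5 others gained one. Of the higher members 2 were called, except that 1 was without ATRA replicate 1 or 3 (range 1 to 2 with a library left out) and 1 with library size alone. The median was -0.38 to -0.34 with a library left out, -0.47 with library size alone and -0.41 with upper-quartile scaling. The cause of the lost calls was not tested. The direction of 6 members that were not called turned. Dbf4 was -0.093 with library size alone, -0.034 with upper-quartile scaling, -0.034 with array weights and -0.079, -0.019 and -0.013 without vehicle replicate 3, ATRA replicate 1 and ATRA replicate 3 (up to 0.077 without ATRA replicate 2). Rrm1 was 0.0071, 0.0070, 0.0015 and 0.017 without vehicle replicates 2 and 3 and ATRA replicates 1 and 2 (-0.050 without ATRA replicate 3 and -0.12 with library size alone). Orc3 was -0.038 and Fen1 -0.028 with library size alone, Gins3 was 0.021 without vehicle replicate 3 (-0.14 with library size alone, -0.068 without vehicle replicate 1), and Tyms was 0.0043 without ATRA replicate 1 (-0.18 with library size alone, -0.14 without vehicle replicate 2). With the replicate number as a block, 31 members were lower and 2 higher, and Mcm8, Orc5, Cdc45, Rfc4 and Tk1 were not called. The deviations of libraries with the same number from their group means had correlations of 0.00041, -0.10 and -0.013. With so few libraries these values cannot tell whether the same number marks a shared isolation. At this depth, members with few reads such as Pole2, with a standard error of 0.19, could not be resolved to smaller changes.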
